A study of Homo sapiens with 56 samples.

Results

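The Krueppel-like factors described here are 10 zinc finger transcription factor genes, KLF2, KLF3, KLF4, KLF5, KLF6, KLF7, KLF9, KLF10, KLF11 and KLF12. They were taken as all probe sets of the array whose annotation gives one of these symbols, which made 19 of 22215 probe sets and 10 of 11963 named genes. Transcript levels were measured in PEO1 and PEO4, established cell lines from a high-grade serous ovarian cancer, both derived from the same patient and both expressing estrogen receptor alpha. All cells, controls included, were first deprived of hormone for 3 days in medium without phenol red and with charcoal-stripped serum. In each line the 3 h groups were 1 nM estradiol (E2), 1 µM of the antagonist ICI (fulvestrant), ICI with E2, 1 µM 4-hydroxytamoxifen (4OHT), 4OHT with E2, and ethanol vehicle, and a further group was taken untreated at 0 h. Each of the 14 groups had 4 arrays, 56 in all. ICI is a steroidal antagonist that destabilises the receptor, and 4OHT, formed from tamoxifen in the liver, is a non-steroidal modulator of the receptor. Nothing in the labels says that the 4 arrays of a group came from separate cultures, so the p-values measure the spread between these arrays, which may be technical. The titles of the PEO4 4OHT arrays use the abbreviation Tam, which the design text gives for 4-hydroxytamoxifen.

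The values are log2 expression values, on which a difference of 1 is a doubling. They carry no read depth, and the number of arrays limits their precision. Array medians ran from 7.401 to 7.484 in PEO1 and from 7.844 to 7.911 in PEO4, so levels are compared only within a line. GREB1, a classical estrogen-induced gene given as a check, was higher in E2 than in vehicle cells by 1.97 in PEO1 and 1.69 in PEO4. All 9 listed carcinoma markers, PAX8, WT1 and EPCAM among them, lay above the median probe set of both lines, against 1 of 8 measured markers of other cell types, the fibroblast gene COL1A1. Of the 56 arrays, 2 from PEO4 stood apart in RNA quality: the log2 difference between the 3′ and 5′ control probe sets of ACTB was 3.41 in ICI replicate 1 and 2.28 in 0 h replicate 4, against 0.24 to 1.74 in the other PEO4 arrays and -0.25 to 0.14 in PEO1. The 1.74 was 4OHT with E2 replicate 4. KLF6 probe set 208960_s_at was low on these 3 arrays (7.76, 8.34 and 9.31), as was KLF4 probe set 220266_s_at on the first 2 (5.92 and 6.32). Several PEO4 results of these probe sets are therefore given with and without these arrays. In PEO4 the ACTB difference also ran along the estradiol comparison. It was 0.68 to 1.02 in the E2 arrays and 0.24 to 0.57 in the vehicle arrays, with no overlap. The part of RNA quality in the PEO4 E2 results was not tested.

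Krueppel-like factors bind GC-rich and CACCC sequences through 3 conserved zinc fingers at their C-terminus, and differ in the rest of the protein, which recruits activators or repressors. KLF4 is known for growth arrest and differentiation of epithelia and as a reprogramming factor, while KLF5 is known for driving proliferation in the same epithelia. KLF2 is a factor of quiescent endothelium and T cells, KLF6 is an early response gene with a tumor suppressor role, and KLF7 acts in neuronal development. KLF9 interacts with the progesterone receptor in endometrium and is induced by thyroid hormone and glucocorticoids, KLF10 and KLF11 are induced by TGF-beta and recruit the SIN3A repressor, and KLF3 and KLF12 are repressors that bind CTBP.

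Promoter sequence was at hand for 8 of the 10 genes, in 16 entries of 250 bases before and 50 after an annotated start (RefSeq, GRCh38.p14). The entries of KLF4, KLF5 and KLF9 are printed 5′ to 3′ on the gene's strand because these genes gave the estradiol results, with matches to the searched motifs in capitals. The KLF4 entry is chr9:107489720-107490019 on the minus strand. The KLF5 entries are chr13:73054726-73055025 and chr13:73058755-73059054 on the plus strand, and the KLF9 entry is chr9:70414608-70414907 on the minus strand.
KLF4: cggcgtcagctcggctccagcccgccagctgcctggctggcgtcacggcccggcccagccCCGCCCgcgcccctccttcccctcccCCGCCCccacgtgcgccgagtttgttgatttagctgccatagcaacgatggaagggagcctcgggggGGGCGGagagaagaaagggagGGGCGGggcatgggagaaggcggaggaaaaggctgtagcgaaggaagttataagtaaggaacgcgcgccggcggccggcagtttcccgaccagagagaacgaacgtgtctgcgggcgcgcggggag
KLF5, first start: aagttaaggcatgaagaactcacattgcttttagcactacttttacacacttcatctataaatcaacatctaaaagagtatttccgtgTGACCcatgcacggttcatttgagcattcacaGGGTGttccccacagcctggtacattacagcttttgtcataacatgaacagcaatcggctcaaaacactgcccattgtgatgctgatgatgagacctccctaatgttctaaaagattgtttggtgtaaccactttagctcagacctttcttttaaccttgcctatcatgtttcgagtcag
KLF5, second start: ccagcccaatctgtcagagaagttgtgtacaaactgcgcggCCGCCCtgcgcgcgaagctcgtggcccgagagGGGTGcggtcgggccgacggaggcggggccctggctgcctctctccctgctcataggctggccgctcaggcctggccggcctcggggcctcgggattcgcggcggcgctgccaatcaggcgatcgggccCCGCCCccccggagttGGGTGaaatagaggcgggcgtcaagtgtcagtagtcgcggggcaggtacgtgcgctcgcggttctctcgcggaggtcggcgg
KLF9: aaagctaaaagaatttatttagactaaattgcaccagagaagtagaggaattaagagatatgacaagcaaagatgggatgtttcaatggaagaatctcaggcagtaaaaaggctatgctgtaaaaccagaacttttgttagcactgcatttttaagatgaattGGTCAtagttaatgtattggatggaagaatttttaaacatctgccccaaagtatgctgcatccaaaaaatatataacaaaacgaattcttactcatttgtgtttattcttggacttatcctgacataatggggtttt
Capitals in KLF4 are 4 GC boxes (GGGCGG or its reverse complement). Capitals at the first KLF5 start are 1 GGTCA core of an estrogen response element, on the reverse strand, and 1 CACCC box. The second KLF5 start held 2 GC boxes and 2 CACCC boxes. In KLF9 the capitals are 1 GGTCA core, which began 87 bases before the start. Over both strands, the full estrogen response element GGTCANNNTGACC was found in 0 of the 16 entries and in 0.057% of all 35116 promoters of the table. GGTCA alone, which is part of the full element, was in 7 of 16 entries (37.4% of all promoters), GGGCGG in 8 (45.0%), CACCC in 8 (59.9%), TGANTCA in 1 (7.71%), TGACGTCA in 1 (1.85%) and a CArG box in 1 (1.29%). Matches to different motifs can overlap, and a match or its absence in these windows says nothing of binding.

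With estradiol, KLF4 rose in both lines and KLF9 fell in PEO1, while KLF5 fell in PEO4. In PEO1, 2 probe sets of KLF4 were higher and 2 of KLF9 lower with E2, 4 of 19, where 1.5% of all probe sets were called (adjusted p under 0.05, limma with Benjamini-Hochberg adjustment over all probe sets). In PEO4, 2 of 19 were called, 1 of KLF4 higher and 1 of KLF5 lower, against 1.44% of all probe sets. Without the 2 PEO4 arrays of high ACTB difference, the second KLF4 probe set and KLF11 (0.21, adjusted p = 0.0328) were called there as well; with all arrays the KLF11 difference of 0.21 had an adjusted p of 0.216. KLF7 differed between E2 and vehicle by 0.12 in PEO1 and 0.16 in PEO4, and KLF10 by 0.06 and 0.10, none of them called. The E2 arrays of KLF7 lay above all its vehicle arrays in both lines. Such a gap was seen in 3 of the 19 in PEO1 and 4 in PEO4, against 4.29% and 3.99% of all probe sets. As whole cultures were measured, fewer cells of a type and less RNA per cell cannot be told apart. The median change over the 19 probe sets was -0.05 in PEO1 and -0.04 in PEO4, against -0.01 and -0.00 over all probe sets.

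KLF4 is covered by 2 probe sets, and values are from the brighter, 221841_s_at, unless another is named. In PEO1 it read 10.27, 10.32, 10.26 and 10.24 in E2 cells, against 9.72, 9.73, 9.86 and 9.79 in vehicle cells. In PEO4 it read 11.15, 11.04, 11.05 and 11.07 in E2 cells, against 10.21, 10.04, 10.06 and 10.13 in vehicle cells. The groups did not overlap in either line. The rise was 0.50 ± 0.06 (SE, n = 4 each; 1.41-fold, adjusted p = 6.2e-06 by limma) in PEO1 and 0.97 ± 0.05 (1.96-fold, adjusted p = 1.67e-12) in PEO4. The second probe set, 220266_s_at, was higher with E2 by 0.60 in PEO1 (adjusted p = 6.38e-06). In PEO4 its difference was 0.68 and was not called (adjusted p = 0.0747), but without ICI replicate 1 and 0 h replicate 4 the same 0.68 had an adjusted p of 6.27e-05.

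E2 gave the highest KLF4 level of the 7 groups in both lines. In PEO1 the means ran from 10.27 ± 0.03 (SD, n = 4) with E2, through 10.03 ± 0.07 with 4OHT, 9.93 ± 0.16 with 4OHT and E2, 9.78 ± 0.06 with vehicle, 9.61 ± 0.09 with ICI and E2 and 9.53 ± 0.05 at 0 h, down to 9.50 ± 0.07 with ICI. Of the neighbours in that order, E2 did not overlap 4OHT and vehicle did not overlap ICI with E2, while the other neighbours overlapped. In PEO4 the means ran from 11.08 ± 0.05 with E2, through 10.62 ± 0.11 with 4OHT and E2, 10.57 ± 0.03 with 4OHT, 10.24 ± 0.08 with ICI and E2, 10.18 ± 0.04 with ICI and 10.11 ± 0.08 with vehicle, down to 10.00 ± 0.04 at 0 h. There E2 stood apart from both 4OHT groups, and these stood apart from the ICI, vehicle and 0 h groups, within which neighbours overlapped.

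KLF5 was lower with E2 in PEO4 and not called in PEO1. Its brighter probe set, 209212_s_at, read 11.34, 11.37, 11.13 and 11.21 in PEO4 E2 cells, against 11.87, 11.77, 11.78 and 11.57 in vehicle cells. All 4 E2 arrays lay below all vehicle arrays, a fall of 0.49 ± 0.09 on the log2 scale (adjusted p = 0.00199). The PEO4 0 h arrays (11.33, 11.54, 11.26 and 11.16) overlapped the E2 arrays. In PEO1 it read 9.55, 9.52, 9.61 and 9.64 in E2 cells, against 9.43, 9.48, 9.55 and 9.52 in vehicle cells, and the difference of 0.09 (95% interval -0.06 to 0.24) was not called. The other KLF5 probe set, 209211_at, differed between E2 and vehicle by -0.21 in PEO1 and -0.25 in PEO4, neither called (adjusted p = 0.761 in PEO4).

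The KLF5 group means in PEO1 lay between 9.79 ± 0.11 with 4OHT and 9.49 ± 0.06 with vehicle (SD, n = 4 each), and every pair of neighbours in the order overlapped. In PEO4 the means were 11.88 ± 0.21 with 4OHT and E2, 11.79 ± 0.10 with 4OHT, 11.75 ± 0.13 with vehicle, 11.72 ± 0.07 with ICI and E2, 11.63 ± 0.11 with ICI, 11.32 ± 0.16 at 0 h and 11.26 ± 0.11 with E2. The only gap between neighbours was between ICI and 0 h, so E2 and 0 h cells formed the low end. By 209211_at the PEO4 0 h mean was 10.32, beside 10.35 with vehicle and 10.10 with E2, and these groups overlapped.

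**Figure D1:**
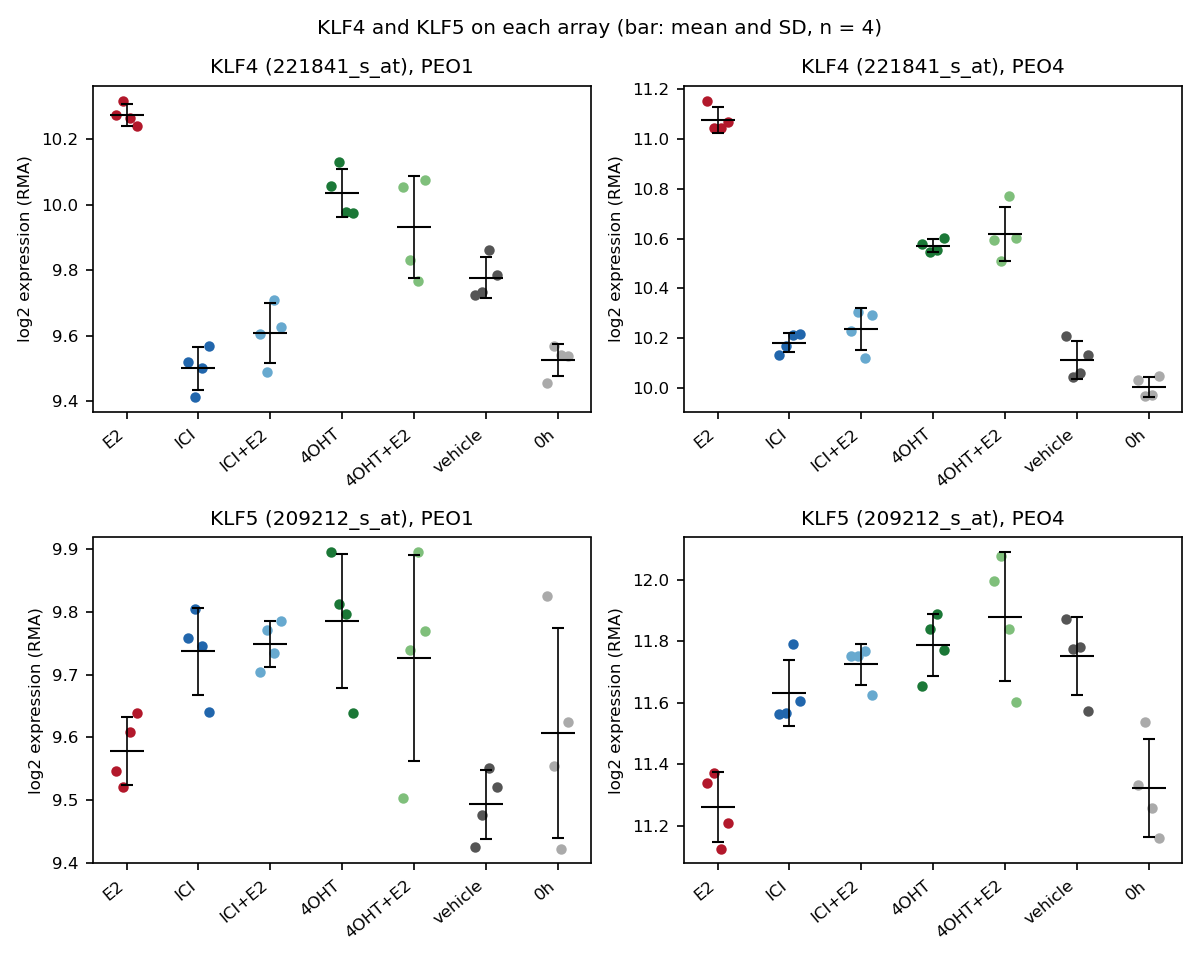
Log2 expression of KLF4 (221841_s_at) and KLF5 (209212_s_at) on each array, by treatment group in PEO1 (left) and PEO4 (right), with the mean and SD of 4 arrays; the axes do not start at 0. In PEO4 the E2 arrays are the highest of all groups for KLF4 and, together with 0 h, the lowest for KLF5.

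The contrast between KLF4 and KLF5 was tested as the difference of their log2 values within each array, with an exact two-sided permutation test over 70 splits of 4 against 4 arrays, in 12 comparisons. The smallest p this design allows is 0.0286, or 0.0381 after adjustment as it fell here. With E2 the KLF4 change exceeded the KLF5 change by 0.41 in PEO1 and by 1.46 in PEO4, each at an adjusted p of 0.0381 (exact permutation test). When ICI was added to E2 the sign turned, to -0.84 in PEO1 and -1.31 in PEO4, and with 4OHT added it was -0.49 and -1.08 (adjusted p = 0.0381 each, exact permutation test). ICI alone gave -0.52 in PEO1 (adjusted p = 0.0381, exact permutation test) and 0.19 in PEO4 (adjusted p = 0.0623, exact permutation test). For 4OHT alone the difference was -0.03 in PEO1, where both genes were higher, and 0.42 in PEO4 (adjusted p = 0.486 and 0.0381, exact permutation test). Vehicle against 0 h gave 0.36 in PEO1 and -0.32 in PEO4 (adjusted p = 0.0381 and 0.0623, exact permutation test). These comparisons share groups, E2 or vehicle, and so are not independent. Leaving out 1 array lost 3 of these calls (adjusted p = 0.0623, exact permutation test): that of 4OHT with E2 in PEO1 without any 1 of the E2 arrays, that of vehicle in PEO1 without any 1 of the vehicle arrays, and that of 4OHT in PEO4 without any 1 of the 4OHT arrays. With probe sets 220266_s_at and 209211_at no adjusted p passed the threshold. The PEO4 4OHT difference was -0.00, and the PEO1 vehicle difference was 0.24 (adjusted p = 0.24, exact permutation test). The PEO4 difference for 4OHT with E2 was -0.65 (adjusted p = 0.129, exact permutation test). The other 6 values called with the main pair kept their sign, at the smallest p of 0.0286 (exact permutation test). Their adjusted p of 0.0571 each was the lowest that adjustment could give once the remaining comparisons missed that p. No difference among them could therefore have been called, whatever its size. The PEO1 vehicle and PEO4 4OHT calls were lost with every other pair of probe sets.

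**Figure D2:**
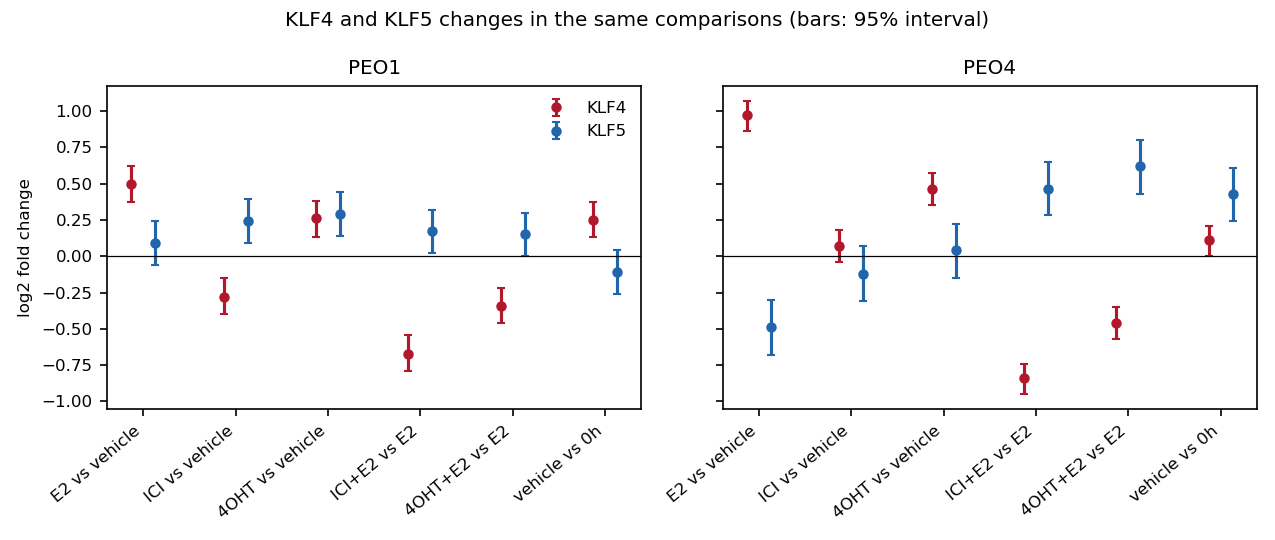
Log2 fold change of KLF4 and KLF5 in 6 comparisons per line (first named group over second), with the 95% interval from limma. In PEO4 the genes lie on opposite sides of 0 for E2 against vehicle and for both antagonists with E2 against E2, and in PEO1 both lie above 0 for 4OHT against vehicle.

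ICI alone called none of the 19 probe sets in either line, where limma called 0.0585% of all probe sets in PEO1 and 0.0765% in PEO4 (1036 and 4123 probe sets had an unadjusted p under 0.05). KLF4 read 9.52, 9.41, 9.50 and 9.57 in PEO1 ICI cells, below all 4 vehicle arrays, a difference of -0.28 (95% interval -0.40 to -0.15) with an adjusted p of 0.103. With a trend and robust variance the adjusted p of that difference was 0.0315, and with array weights it was 0.0111. In PEO4 KLF4 differed between ICI and vehicle by 0.07 (95% interval -0.04 to 0.18). KLF5 probe set 209212_s_at differed by 0.24 in PEO1 and -0.12 in PEO4, and 209211_at by 0.18 and 0.13. In PEO1 the ICI arrays of 209212_s_at (9.64 to 9.80) lay above all vehicle arrays (9.42 to 9.55). Such a gap was seen in 0.968% of all probe sets. KLF7 differed by -0.11 in PEO1 and -0.02 in PEO4, and KLF10 by -0.09 and -0.03. ICI with E2 against vehicle also called 0 of 19 in each line, beside 0.0225% and 0.0045% of all probe sets (1314 and 1559 at an unadjusted p under 0.05).

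4OHT alone raised KLF4, KLF6 and KLF9 in both lines, with KLF5 in PEO1 and KLF2 in PEO4. In PEO1, 5 of 19 probe sets were higher and 0 lower with 4OHT, from 4 genes, where 4.21% of all probe sets were called. In PEO4, 4 were higher and 1 lower, from 5 genes, where 3.93% were called. The second KLF4 probe set, 220266_s_at, was called in neither line, with differences of 0.23 (adjusted p = 0.0668) in PEO1 and 0.19 (adjusted p = 0.681) in PEO4. KLF6 probe set 211610_at was not called either, with 0.20 in PEO1 and 0.03 in PEO4. The median change over the 19 was 0.20 in PEO1 and 0.10 in PEO4, against -0.03 and -0.00 over all probe sets.

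In PEO1, KLF4 read 10.06, 10.13, 9.98 and 9.97 in 4OHT cells, and was higher than in vehicle cells by 0.26 ± 0.06 (SE; adjusted p = 0.0134). In PEO4 it read 10.58, 10.55, 10.55 and 10.60 with 4OHT and was higher by 0.46 ± 0.05 (adjusted p = 2.65e-06). 4OHT arrays lay above all vehicle arrays and below all E2 arrays of the same line. KLF5 read 9.90, 9.81, 9.80 and 9.64 in PEO1 4OHT cells, all above the vehicle arrays, and was higher by 0.29 ± 0.07 (adjusted p = 0.0207). In PEO4 its 4OHT and vehicle arrays overlapped, with a difference of 0.04 (95% interval -0.15 to 0.22). The PEO1 calls of 4OHT against vehicle were close to the threshold: with only these 8 arrays in the fit, 1 of the 4 genes, KLF6, was called, and KLF4 and KLF5 had adjusted p-values of 0.0548 and 0.0505. The KLF4 call was also lost without 4OHT replicate B or vehicle replicate A, and the KLF5 call without 4OHT replicate A or B or vehicle replicate A or B (highest adjusted p = 0.0603 and 0.0739).

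Each antagonist added to E2 lowered KLF4 relative to E2 alone. With ICI, KLF4 read 9.60, 9.49, 9.71 and 9.63 in PEO1 and 10.23, 10.30, 10.12 and 10.29 in PEO4, below every E2 array of the line. It fell by 0.67 (adjusted p = 2.34e-08) in PEO1 and by 0.84 (adjusted p = 3.27e-11) in PEO4. With 4OHT it read 10.06, 9.83, 9.77 and 10.08 in PEO1 and 10.59, 10.51, 10.77 and 10.60 in PEO4, again below the E2 arrays. It fell by 0.34 (adjusted p = 0.000422) and 0.46 (adjusted p = 8.07e-07). In PEO4 the second probe set, 220266_s_at, differed from E2 by -0.72 with ICI and -0.46 with 4OHT, neither called. Without the 2 arrays of high ACTB difference these values had adjusted p-values of 4.04e-05 and 0.00291 (limma).

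KLF5 probe set 209212_s_at in PEO4 was higher when an antagonist accompanied E2. It read 11.75, 11.75, 11.77 and 11.63 with ICI and E2 and 11.997, 12.08, 11.84 and 11.60 with 4OHT and E2, above every E2 array. The rise over E2 was 0.46 (adjusted p = 0.00468) with ICI and 0.62 (adjusted p = 4.53e-05) with 4OHT. Probe set 209211_at was also higher with ICI and E2 than with E2 in PEO4, by 0.57 (adjusted p = 0.0391), though 6 of 28 fits that each left out 1 array lost that call, among them those without E2 replicate 2, 3 or 4 (highest adjusted p = 0.205). For 4OHT with E2 against E2 in PEO4, 209211_at differed by 0.19, with overlapping groups, and was not called. In PEO1 neither KLF5 probe set was called in these comparisons. Over all members, ICI with E2 against E2 called 3 probe sets higher (KLF6 and KLF9) and 2 lower (KLF4) in PEO1, where 1.88% of all probe sets were called. In PEO4 it called 2 higher (KLF5) and 1 lower (KLF4), where 1.44% were called. Without the 2 arrays of high ACTB difference, 4 member genes were called there in place of 2: KLF7 (-0.27, adjusted p = 0.0191) and KLF6 probe set 211610_at (-0.25, adjusted p = 0.0253) were added. Without 4OHT with E2 replicate 4 as well there were 5, with KLF9 (0.26, adjusted p = 0.0375). 4OHT with E2 against E2 called 6 higher and 2 lower in PEO1 (9.99% of all probe sets) and 4 higher and 1 lower in PEO4 (4.25%).

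KLF6 responded to 4OHT with and without E2. Its brightest probe set, 208961_s_at, read 11.36, 11.18, 11.24 and 11.28 in PEO4 4OHT cells and 11.44, 11.42, 11.51 and 11.06 in 4OHT with E2 cells, against 10.71, 10.64, 10.82 and 10.79 in vehicle cells. All 8 arrays with 4OHT lay above all vehicle arrays, and the rises were 0.53 (adjusted p = 0.000288) and 0.61 (adjusted p = 1.35e-05). In PEO1 it read 11.30, 11.12, 11.01 and 11.20 with 4OHT, against 10.77, 10.79, 10.88 and 10.76 with vehicle, a rise of 0.36 (adjusted p = 0.00024). With 4OHT and E2 the PEO1 rise over vehicle was 0.26 (adjusted p = 0.00452). E2 alone differed from vehicle by -0.10 in PEO1 and 0.03 in PEO4, neither called. Probe set 208960_s_at gave 0.37 for 4OHT in PEO1 (adjusted p = 0.00587). In PEO4 it gave 0.57 with an adjusted p of 0.43 (limma), and without the 2 arrays of high ACTB difference it was still not called. Without the 3 arrays named above, a setting chosen after seeing the data, the same 0.57 had an adjusted p of 4.38e-05 (limma). For 4OHT with E2 against E2 in PEO4 it gave 0.48 and was not called, either with all arrays or without the 2 of high ACTB difference. Without the 3 arrays, the same setting chosen after seeing the data, it gave 0.81 (adjusted p = 4.52e-07, limma).

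KLF9 fell with E2 in PEO1 and was higher with 4OHT in both lines. Probe set 203542_s_at read 7.07, 7.25, 7.11 and 6.97 in PEO1 E2 cells, 7.85, 7.71, 7.87 and 7.53 in 4OHT cells, and 7.34, 7.55, 7.31 and 7.40 in vehicle cells. The E2 arrays lay below and, but for an overlap of 1 array on each side, the 4OHT arrays above the vehicle arrays: E2 fell by 0.30 (adjusted p = 0.0485) and 4OHT rose by 0.34 (adjusted p = 0.0127). Probe set 203543_s_at fell with E2 by 0.52 (adjusted p = 0.0108). The E2 call of 203542_s_at was lost in 21 of 28 fits that each left out 1 array, and without vehicle replicate C neither probe set was called. In PEO4, probe set 203542_s_at read 8.54, 8.67, 8.57 and 8.67 in 4OHT cells, against 8.25, 8.33, 8.29 and 8.24 in vehicle cells, with no overlap and a rise of 0.34 (adjusted p = 0.0177). The 4OHT call was lost in PEO1 without vehicle replicate C or 4OHT replicate C and in PEO4 without vehicle replicate 4 or 4OHT replicate 2 or 4 (highest adjusted p = 0.0573 and 0.0597). Its E2 difference in PEO4 was -0.15 and that of 203543_s_at -0.43, neither called. The PEO4 minus PEO1 difference of the E2 response was 0.15 for 203542_s_at and 0.09 for 203543_s_at, and neither was called. Against E2 alone, 4OHT with E2 was higher by 0.58 in PEO1 and 0.63 in PEO4 (adjusted p = 1.19e-05 and 8.28e-06), and ICI with E2 by 0.31 in PEO1 (adjusted p = 0.0286, lost in 6 of 28 fits that each left out 1 array). The other KLF9 probe set, 203541_s_at, was called in no comparison. In PEO1 203543_s_at was the dimmest of the 3, with a line mean of 6.05 beside 6.11 for 203541_s_at and 7.51 for 203542_s_at.

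KLF2 was called in PEO4 alone. It read 7.93, 7.93, 7.88 and 7.84 with 4OHT and 7.88, 7.99, 8.43 and 8.01 with 4OHT and E2, against 7.49, 7.59, 7.64 and 7.42 with vehicle. The 8 arrays with 4OHT lay above all others of the line's 3 h groups, and the rises were 0.36 (adjusted p = 0.012, 0.0529 without vehicle replicate 4) and 0.54 (adjusted p = 8.67e-05). In PEO1 the 4OHT difference was 0.17 (95% interval -0.03 to 0.38), and 4OHT arrays read 7.16, 7.45, 7.08 and 7.06, against 7.10, 6.95, 7.07 and 6.92 with vehicle. The difference of the 4OHT response between the lines was not called for KLF2.

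**Figure D3:**
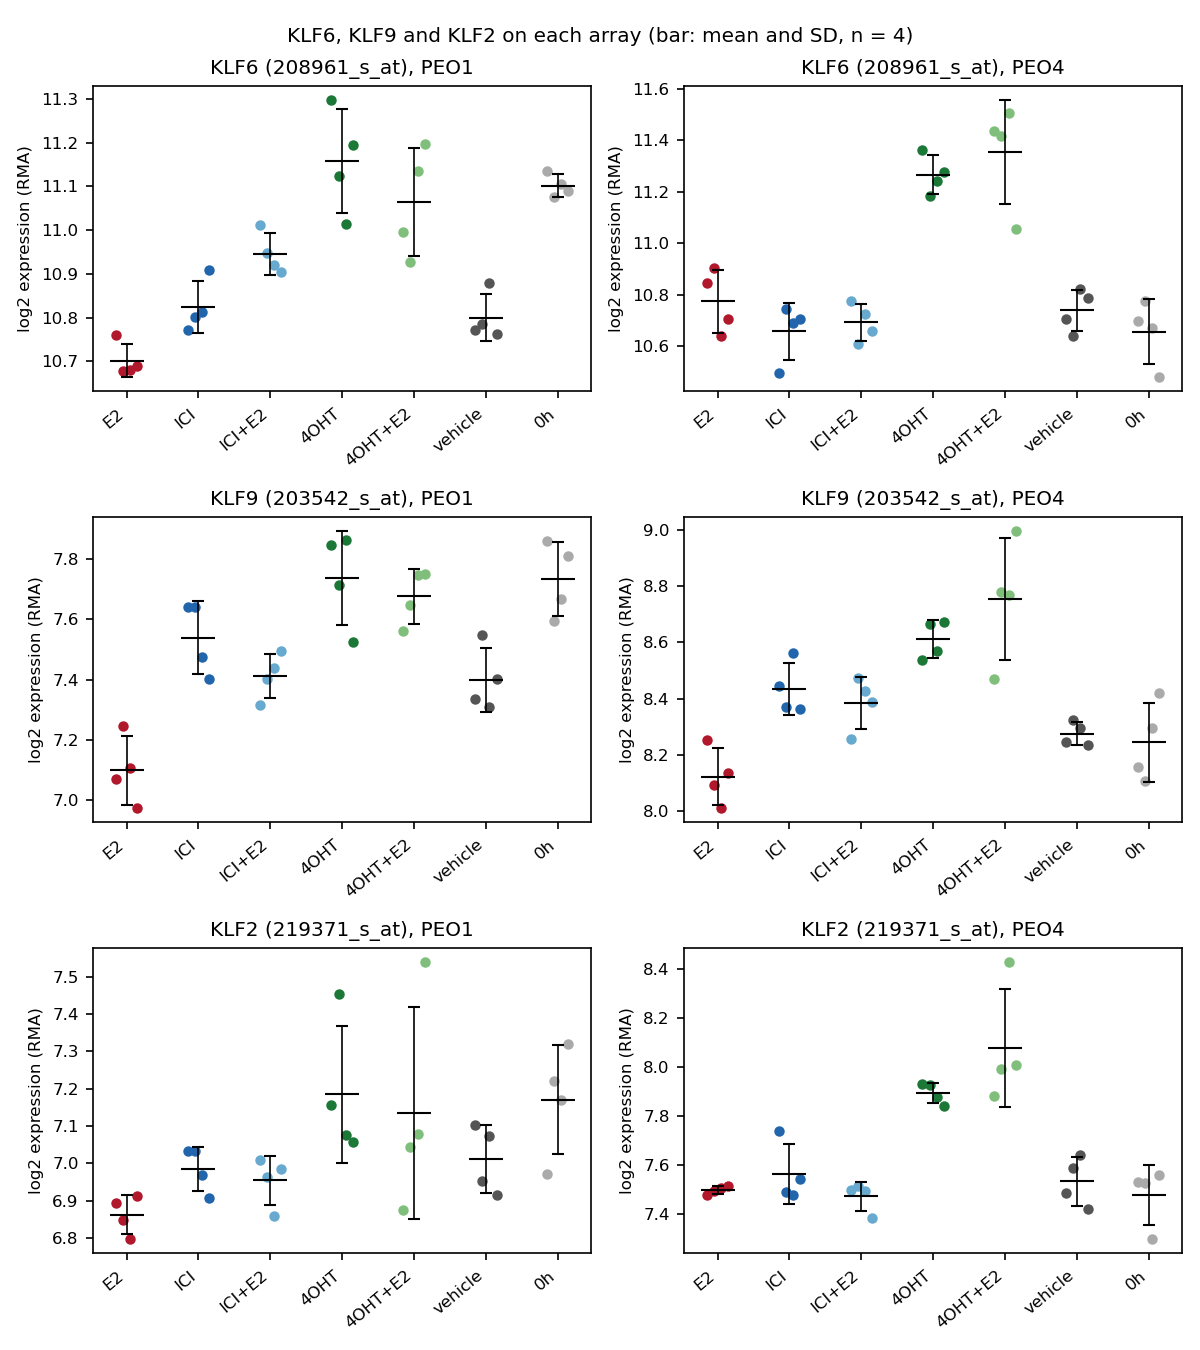
Log2 expression of KLF6 (208961_s_at), KLF9 (203542_s_at) and KLF2 (219371_s_at) on each array, by treatment group in PEO1 (left) and PEO4 (right), with the mean and SD of 4 arrays; the axes do not start at 0. In PEO4 the 4OHT and 4OHT with E2 arrays of KLF6 and KLF2 lie above those of all other groups, and in PEO1 the E2 arrays of KLF9 are the lowest.

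Of KLF10 and KLF11, KLF10 rose in PEO4 with 4OHT and E2 over vehicle by 0.34 (adjusted p = 0.0119, limma). Its 4OHT difference of 0.28 there had an adjusted p of 0.0504 (0.0355 without the 2 arrays of high ACTB difference). KLF11 rose in PEO1 with 4OHT and E2 over E2 by 0.32 (adjusted p = 0.0108) and in PEO4 with 4OHT and E2 over vehicle by 0.27 (adjusted p = 0.0245, lost without any of vehicle replicates 2, 3 and 4 or 4OHT with E2 replicate 3). Of the CTBP-binding pair, KLF3 was called in no comparison, and its differences lay between -0.15 and 0.09. One of 4 KLF12 probe sets, 214276_at, fell with 4OHT in PEO4 by 0.36 (adjusted p = 0.0121, 0.0519 without vehicle replicate 2), while 206966_s_at, which was dimmer there (line means of 7.09 and, for 214276_at, 7.60), had means of 7.09 with 4OHT and 7.10 with vehicle. The remaining probe sets, 208467_at and 206965_at, differed there by -0.29 and -0.20, neither called. Their PEO4 line means were 5.97 and 3.72. Over all members, 4OHT with E2 against vehicle called 3 of 19 higher in PEO1 (KLF6 and KLF9; the KLF9 call was lost in 6 and that of KLF6 probe set 208960_s_at in 5 of 28 fits that each left out 1 array), where 4.86% of all probe sets were called, and 6 higher in PEO4 (KLF2, KLF4, KLF6, KLF9, KLF10 and KLF11), where 5.17% were called. E2 added to ICI or to 4OHT called 0 of 19 in either line, where the share of all probe sets called was 0% for 3 of these 4 comparisons and 0.0675% for 4OHT with E2 against 4OHT in PEO4 (limma; 722 to 2949 probe sets had an unadjusted p under 0.05).

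ICI and 4OHT were given at the same 1 µM for the same 3 h, and were compared directly without and with E2 in each line, 4 comparisons in all, with p-values adjusted over all probe sets of each. Without E2, 4OHT exceeded ICI for KLF4 by 0.53 in PEO1 (95% interval 0.41 to 0.66; adjusted p = 4.74e-06) and by 0.39 in PEO4 (0.28 to 0.50; adjusted p = 4.51e-05). With E2 it exceeded ICI by 0.33 in PEO1 (0.20 to 0.45) and 0.38 in PEO4 (0.28 to 0.49), both called. KLF6 was higher with 4OHT than with ICI by 0.33 in PEO1 (0.22 to 0.45) and 0.61 in PEO4 (0.44 to 0.78), both called. With E2 the KLF6 difference was 0.66 in PEO4 (0.49 to 0.83; called) and 0.12 in PEO1 (0.00 to 0.23; not called).

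Of the other 8 members, KLF2, KLF7, KLF9 and KLF10 were called between the antagonists, each in PEO4 and not in PEO1, and KLF3, KLF5, KLF11 and KLF12 in none of the 4 comparisons. KLF2 was higher with 4OHT than with ICI by 0.33 (adjusted p = 0.0384), a call lost without any 1 of the 4OHT arrays or of ICI replicates 2, 3 and 4, and with E2 by 0.61 (adjusted p = 2.7e-05). KLF10 was higher by 0.31 without E2 (adjusted p = 0.047, lost in 22 of 28 fits that each left out 1 array, and 0.122 without the 2 arrays of high ACTB difference), and KLF7 and KLF9 were higher by 0.27 and 0.37 with E2 (adjusted p = 0.0331 and 0.00911). These calls were lost without ICI with E2 replicate 1 or 4 or 4OHT with E2 replicate 2, 3 or 4 for KLF7, and without 4OHT with E2 replicate 4 for KLF9 (highest adjusted p = 0.137 and 0.0591). In PEO1 the means with 4OHT and with ICI were 7.19 and 6.98 for KLF2, and 11.15 and 10.95 for KLF10. With E2 on both sides they were 7.68 and 7.41 for KLF9 (203542_s_at) and, in the other direction, 9.04 and 9.08 for KLF7. Whether the lines differed in 4OHT against ICI was not tested. No difference between the antagonists was called for KLF5, whose intervals without E2 were -0.10 to 0.20 in PEO1 and -0.03 to 0.34 in PEO4. None was called for KLF3 either, where they were -0.20 to 0.04 and -0.25 to 0.01. In PEO4 KLF11 had an interval of -0.16 to 0.14 without E2, and KLF12 probe set 214276_at a difference of -0.31 (-0.48 to -0.14; adjusted p = 0.062). In PEO1 the KLF11 means were 7.77 with 4OHT and 7.55 with ICI, and 7.77 and 7.51 with E2 on both sides, neither called. In counts, 4OHT against ICI called 4 of 19 in PEO1 and 4 in PEO4, all higher, where 2.39% and 1.56% of all probe sets were called. One of the 4 in PEO1, KLF6 probe set 208960_s_at (0.29), lost its call in 21 of 28 fits that each left out 1 array. With E2 the counts were 2 and 6, all higher, where 2.71% and 3.21% were called.

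**Figure D4:**
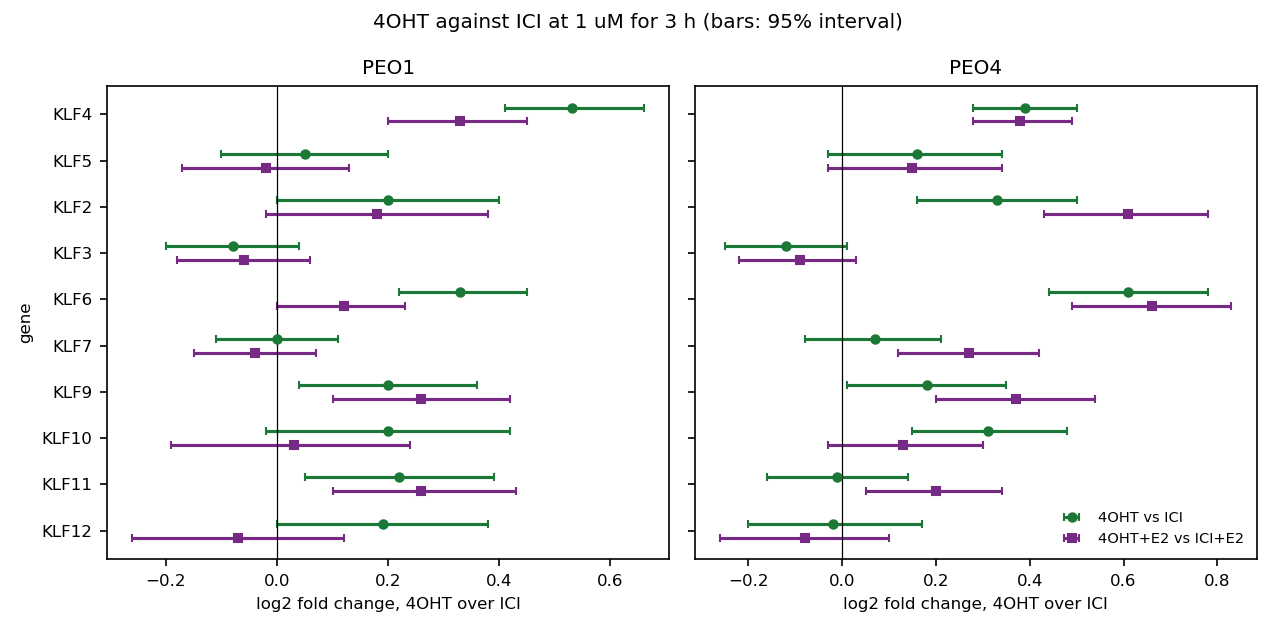
Log2 fold change of 4OHT over ICI at the same dose and time, without E2 (circles) and with E2 on both sides (squares), for the probe set of each gene with the highest mean over all arrays of both lines (206966_s_at for KLF12, for which 214276_at was brighter in PEO4), with the 95% interval from limma. The intervals of KLF4 lie above 0 in all 4 comparisons, and those of KLF5 and KLF3 span 0 in all 4.

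Vehicle cells at 3 h differed from untreated cells at 0 h in both lines, in KLF4, KLF6 and KLF9 in PEO1 and in KLF5 and KLF7 in PEO4. In PEO1, KLF4 was higher in vehicle than in 0 h cells by 0.25 (adjusted p = 0.0113, 0.0565 without vehicle replicate C), while KLF6 fell by 0.30 (adjusted p = 0.00124) and KLF9 by 0.33 (adjusted p = 0.00971). KLF6 read 10.77, 10.79, 10.88 and 10.76 with vehicle, against 11.14, 11.08, 11.11 and 11.09 at 0 h. The PEO1 4OHT level of KLF6 (11.01 to 11.30) overlapped that of 0 h. In PEO4, KLF5 was higher in vehicle than in 0 h cells by 0.43 (adjusted p = 0.00405) and KLF7 by 0.34 (adjusted p = 0.00418). The other KLF5 probe set, 209211_at, differed there by 0.02 and was not called. KLF7 read 8.44, 8.54, 8.44 and 8.49 with vehicle, against 8.02, 8.11, 8.08 and 8.34 at 0 h, with no overlap. In all, 1 of 19 probe sets was higher and 4 lower in PEO1, where 5.66% of all probe sets were called, and 2 were higher in PEO4, where 4.89% were called.

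The responses of the lines were compared as PEO4 minus PEO1 differences in a fit over all 56 arrays. For E2 the KLF4 response was larger in PEO4 by 0.47 ± 0.08 (SE; adjusted p = 0.000289), and the KLF5 response differed by -0.57 ± 0.12 (adjusted p = 0.00762); these 2 of 19 were called, where 0.32% of all probe sets were. The second KLF4 probe set gave a difference of 0.08 (95% interval -0.34 to 0.50) and the second KLF5 probe set -0.04 (-0.45 to 0.37), neither called. The KLF5 response to 4OHT with E2 against E2 was larger in PEO4 by 0.47 (adjusted p = 0.0253), 1 of 19 called against 1.4% of all probe sets. For ICI against vehicle, 4OHT against vehicle and ICI with E2 against E2, 0 of 19 were called (0.063%, 0.783% and 0.293% of all probe sets by limma, and 2221, 2947 and 1421 at an unadjusted p under 0.05). For vehicle against 0 h, 4 of 19 were called, where 1.46% of all probe sets were, in KLF5 (0.54), KLF6 (0.38), KLF7 (0.50) and KLF9 probe set 203543_s_at (0.71). Without the 2 PEO4 arrays of high ACTB difference, KLF6 gave 0.33 (adjusted p = 0.0824) and KLF9 0.66 (adjusted p = 0.0804).

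**Figure D5:**
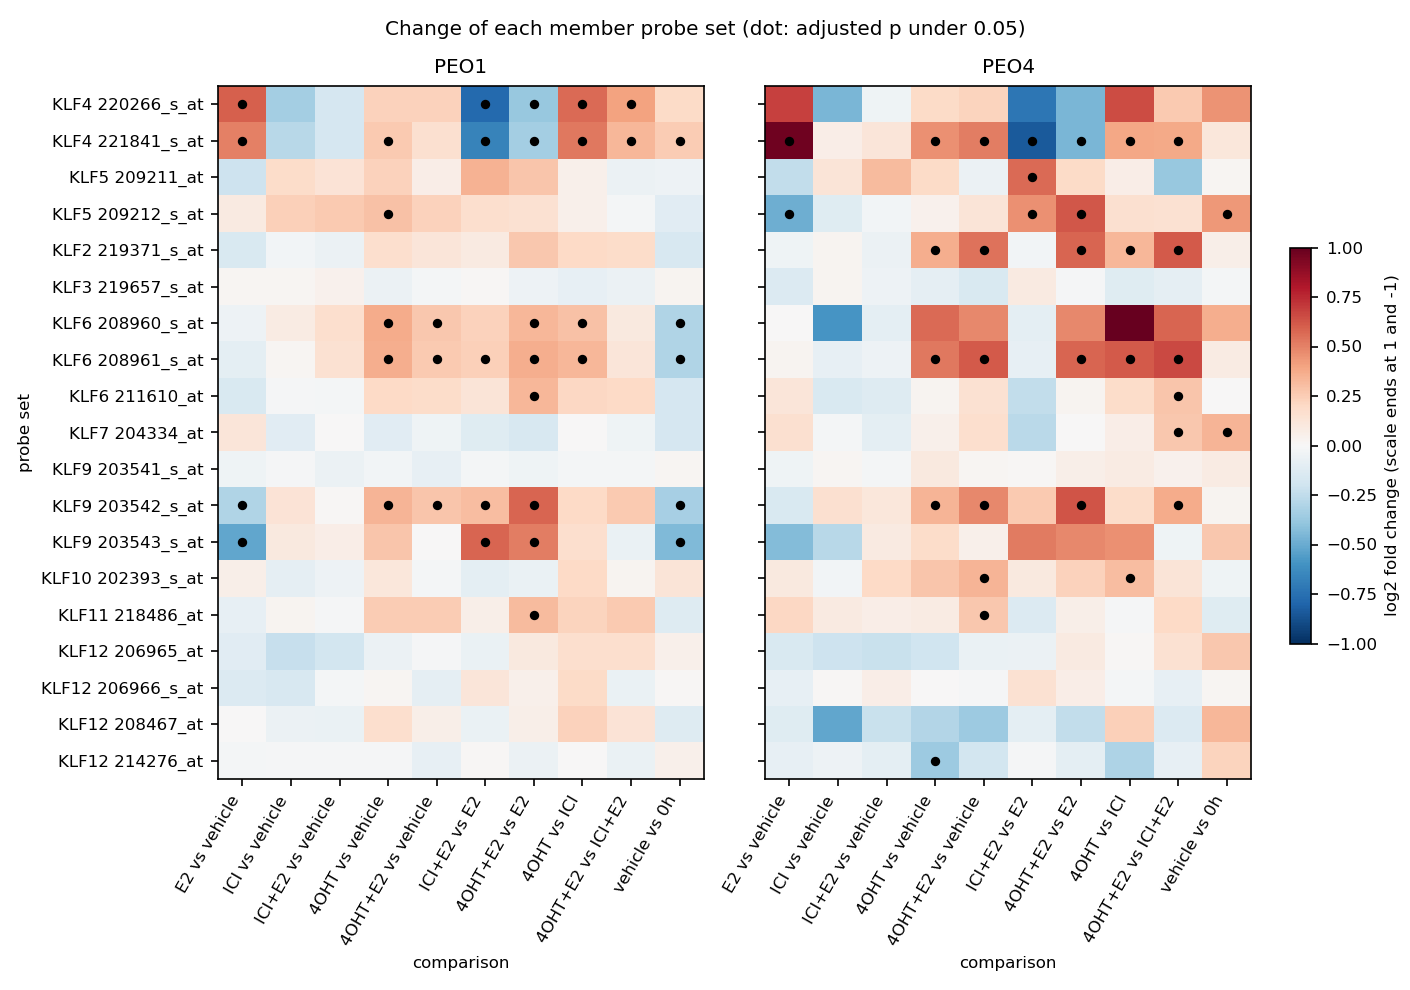
Log2 fold change of the 19 probe sets (rows) in 10 comparisons (columns, first named group over second) in PEO1 and PEO4, with colours ending at 1 and -1 and a dot where the adjusted p was under 0.05. The KLF4 rows change sign between E2 against vehicle and the antagonists with E2 against E2, and KLF3 has no dot.

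Beyond the members, 8 of 15 listed other KLF and SP genes were measured, by 9 probe sets. None of them was called with any treatment in either line, and KLF13 was higher in vehicle than in 0 h cells of PEO4 by 0.30 (adjusted p = 0.0303). Of the listed cofactors and regulators, 15 of 16 genes were measured by 37 probe sets. With E2, 0 of the 37 were called in either line, beside 1.5% and 1.44% of all probe sets (limma; 2342 and 1797 of all probe sets had an unadjusted p under 0.05). With 4OHT, 0 were called in PEO1 and 1 in PEO4, the transcription factor gene MEF2A (0.19), beside 4.21% and 3.93% of all probe sets. These counts are near the shares over all probe sets. SIN3B, a co-repressor, was lower with ICI and E2 than with E2 in PEO1 (-0.28) and, by another probe set, in PEO4 (-0.50). MEF2C, a related transcription factor gene, was lower in PEO1 with 4OHT and E2 than with vehicle by 2 probe sets (-0.30 and -0.38), and by 1 of them than with ICI and E2 (-0.42). In PEO4, FBXW7, a ubiquitin ligase subunit gene, was higher with 4OHT and E2 than with vehicle (0.28). MEF2D was higher there with 4OHT and E2 than with E2 (0.25) and, by another probe set, than with ICI and E2 (0.24). MAP2K5, a kinase gene, was lower in vehicle than in 0 h cells of PEO1 (-0.23). In each of these comparisons 1 or 2 of the 37 were called, where between 1.44% and 5.66% of all probe sets were.

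Of the listed target genes of KLF4 and KLF5, 13 of 14 were measured by 18 probe sets. With E2, IVL (involucrin, a marker of squamous differentiation) was higher in both lines. Its rise was 0.44 ± 0.06 (SE) in PEO1, with an adjusted p of 1.37e-05, and 0.61 ± 0.12 in PEO4, with an adjusted p of 0.00278. PDGFA, a growth factor gene, was lower in PEO1 with a change of -0.27 (adjusted p = 0.0191). IVL was thus the 1 probe set called higher in each line, and PDGFA the 1 called lower, in PEO1. With 4OHT, CDKN1A, which encodes the cell cycle inhibitor p21, was higher in both lines, by 0.29 (adjusted p = 0.0228) and 0.56 (adjusted p = 0.0018). BIRC5, the survivin gene, was lower in PEO1 by both called probe sets (-0.22 each). In PEO4, FGFBP1 (0.45), IVL (0.43) and ODC1 (0.22) were also higher with 4OHT. In all, 1 of 18 was higher and 2 lower in PEO1, where 4.21% of all probe sets were called, and 4 were higher in PEO4, where 3.93% were, with list medians of -0.05 and 0.01 beside -0.03 and -0.00 over all probe sets. Relative to E2 alone, 4OHT with E2 called 5 of 18 higher and 4 lower in PEO1 (9.99% of all probe sets) and 3 higher in PEO4 (4.25%). CDKN1A and FGFBP1 were higher there in both lines, CDKN1A by 0.41 in PEO1 and 0.90 in PEO4, while IVL was lower in PEO1 (-0.23). 4OHT against ICI called 1 of 18 higher and 2 lower in PEO1 and 2 higher in PEO4 (2.39% and 1.56% of all probe sets). With E2 on both sides it called 2 higher in PEO1, and 3 higher and 1 lower in PEO4 (2.71% and 3.21%). CDKN1A was higher in each (0.27 and 0.30 in PEO1, 0.55 and 0.89 in PEO4). FGFBP1 was higher in PEO1 with E2 (0.24) and in PEO4 without and with E2 (0.35 and 0.59), as was ODC1 in PEO4 with E2 (0.21). SMAD7, an inhibitor of TGF-beta signalling (-0.34), and BIRC5 (-0.20) were lower in PEO1 without E2. NANOG was lower in PEO4 with E2 (-0.27, adjusted p = 0.0488 by limma). CCNE1, the cyclin E1 gene, was higher in vehicle than in 0 h cells of both lines, by 0.28 in PEO1 and 0.32 in PEO4.

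Over the 14 group means, each line centred on its own mean, the genes whose pattern was most like that of KLF4 were INHBA (Pearson r = 0.94), MYC (0.93), OSBPL3 (0.92), IL12A (0.92) and RUBCNL (0.90). For KLF5 they were DKK1 (0.91), EZR (0.84), EFNB2 (0.84), PCDH7 (0.82) and ELL2 (0.82). These were the highest of 173 genes whose group means ranged over at least 0.5 in each line, a range that KLF5 itself did not reach. The correlations describe 14 points that share arrays and treatments, and no test was made of them.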

How the data were processed

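Total RNA of the 56 samples was labelled with biotin and hybridised to Affymetrix arrays, 1 colour per array. The authors deposited log2 expression values, made with RMA per the submitters' processing notes; its version and settings are not given in the sources used here. Of 22277 rows, 62 control probe sets were left out, and 19064 of the others had 1 gene symbol in the array annotation, 1043 several and 2108 none. Each line was fitted separately (limma 3.58.1, R 4.3.3) on all 22215 probe sets and all 28 arrays with 7 group means and 21 residual degrees of freedom, and p-values were adjusted by Benjamini-Hochberg over all probe sets. Line differences came from a fit over 56 arrays with 42 residual degrees of freedom. The fit was tested on simulated data. The members and gene lists were chosen with earlier results of these data known. KLF4 and KLF5 were described in full and the other members by role with values where called; listed genes were counted, and those called were named. KLF4 against KLF5 was tested by exact permutation, and motifs and figures were made with Python 3.11.15, NumPy 2.4.6 and matplotlib 3.10.9. The alternatives were quantile normalization, a filter on the dimmest 40% of probe sets, 1 probe set per gene, trend and robust variance, array weights, the compared groups alone, a replicate block, other probe set pairs and arrays left out. Replicate labels were not taken to pair the arrays.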

Additional observations from a re-analysis of the deposited data

Results flagged for a closer look

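A single array lay far from the other 3 of its group, by Dixon's test at its 95% critical value, in 22 of 266 groups of member values (8.27%, where chance gives about 5%). KLF6 probe set 208960_s_at was low in PEO4 on 3 arrays: 7.76 in ICI replicate 1 (others 9.67 to 9.78), 8.34 in 0 h replicate 4 (others 9.79 to 9.88) and 9.31 in 4OHT with E2 replicate 4 (others 10.56 to 10.74). These arrays had the highest ACTB 3′ minus 5′ differences of the series (3.41, 2.28 and 1.74), and the part of RNA quality in the values was not tested. KLF5 probe set 209212_s_at read 11.62 in PEO4 ICI with E2 replicate 4 (others 11.75 to 11.77). KLF6 read 10.76 in PEO1 E2 replicate A for 208961_s_at (others 10.68 to 10.69) and 6.84 in PEO4 vehicle replicate 3 for 211610_at (others 7.03 to 7.06). KLF2 read 7.29 in PEO4 0 h replicate 3 (others 7.52 to 7.56) and 7.38 in ICI with E2 replicate 4 (others 7.49 to 7.51). KLF9 read 6.28 in PEO1 0 h replicate A (others 6.48 to 6.50) and 6.42 in ICI with E2 replicate C (others 5.91 to 5.98) for 203543_s_at, and 6.67 in PEO4 4OHT with E2 replicate 1 for 203541_s_at (others 6.56 to 6.57).

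KLF10 read 11.15 in PEO1 ICI replicate D (others 10.87 to 10.89). KLF11 read 7.36 in PEO1 vehicle replicate D (others 7.57 to 7.59) and 8.55 in PEO4 E2 replicate 4 (others 8.48 to 8.49). KLF3 read 8.17 in PEO1 0 h replicate A (others 7.97 to 8.0) and 7.98 in vehicle replicate D (others 8.09 to 8.10). KLF7 read 9.03 in PEO1 4OHT replicate D (others 8.94 to 8.96). KLF12 read 3.24 in PEO1 E2 replicate A (others 3.07 to 3.08) and 3.46 in vehicle replicate A (others 3.12 to 3.17) for 206965_at. Its probe set 214276_at read 6.70 in PEO1 4OHT replicate C (others 6.50 to 6.52) and 6.70 in ICI with E2 replicate B (others 6.52 to 6.53), and 206966_s_at read 7.24 in PEO4 ICI with E2 replicate 1 (others 7.14).

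The responses of the lines differed, by the test of the PEO4 minus PEO1 difference (limma, adjusted p), for 7 member results. With E2 the difference was 0.47 for KLF4 (0.97 in PEO4 and 0.50 in PEO1; adjusted p = 0.000289) and -0.57 for KLF5 (-0.49 and 0.09; adjusted p = 0.00762). For 4OHT with E2 against E2 it was 0.47 for KLF5 (0.62 and 0.15; adjusted p = 0.0253). For vehicle against 0 h it was 0.54 for KLF5 (0.43 and -0.11; adjusted p = 0.00504), 0.38 for KLF6 (0.08 and -0.30; adjusted p = 0.0307), 0.50 for KLF7 (0.34 and -0.17; adjusted p = 0.000313) and 0.71 for KLF9 (0.27 and -0.44; adjusted p = 0.03). The KLF4 and KLF5 values are from 1 of 2 probe sets each, and the other probe set of neither gene gave a called difference.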

How the results depend on the processing

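Over 8908 values of 265 results under the alternatives, 8564 kept their side of the threshold or, for counts of genes, moved little. Of the others, 192 lost their call, 110 gained one, 41 counts moved, and 1 called value turned its sign. Among the 8564, values that were not called and lay near 0 crossed it under several alternatives. The KLF4 rise with E2 in both lines and the KLF5 fall with E2 in PEO4 kept their calls in all 28 fits that each left out 1 array. For ICI against vehicle in PEO1, KLF4 gave -0.28 with a trend and robust variance and -0.27 with array weights, so that 1 member gene was called in place of 0. In PEO4 the same comparison called 1 gene with the replicate block and 2 with array weights. For 4OHT against vehicle in PEO1, a fit of only the compared groups gave KLF4 0.26 (adjusted p = 0.0548) and KLF5 0.29 (adjusted p = 0.0505) and called 1 gene in place of 4. For ICI with E2 against E2 in PEO4, 2 genes became 4 with dim probe sets dropped or without 0 h replicate 4 and ICI replicate 1, and 5 with array weights or without 4OHT with E2 replicate 4 as well, a setting chosen after seeing the data. The cause of these changes was not tested.

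Leaving out 1 array at a time, the genes called ranged from 1 to 2 for E2, 0 to 1 for ICI and 2 to 5 for 4OHT in PEO1, and from 0 to 2 for ICI, 3 to 6 for 4OHT and 2 to 4 for ICI with E2 against E2 in PEO4. They ranged from 1 to 3 for 4OHT with E2 against vehicle in PEO1, and in PEO4 from 2 to 5 for 4OHT against ICI and from 3 to 5 for the same with E2. For 4OHT in PEO1, KLF4 ranged from 0.23 to 0.29 and KLF5 from 0.26 to 0.34. KLF4 minus KLF5 ranged from -0.60 to -0.38 for 4OHT with E2 against E2 and from 0.27 to 0.43 for vehicle against 0 h in PEO1, and from 0.37 to 0.49 for 4OHT in PEO4; each of these 3 lost its call in 4 of 8 fits.

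With probe sets 220266_s_at and 209211_at, KLF4 minus KLF5 was 0.81 for E2, -0.52 for ICI, -1.13 for ICI with E2, -0.66 for 4OHT with E2 and 0.24 for vehicle against 0 h in PEO1. In PEO4 it was 0.93 for E2, -1.28 for ICI with E2, -0.65 for 4OHT with E2 and -0.00 for 4OHT, the 1 called value that turned its sign, and in both lines no adjusted p passed the threshold. Where the adjusted p was 0.0571 (exact permutation test), it was the lowest that adjustment could give there. With 220266_s_at and 209212_s_at the PEO1 vehicle and PEO4 4OHT values were 0.30 and 0.15, and with 221841_s_at and 209211_at they were 0.30 and 0.27, not called. Replicate labels were not taken to pair the arrays, since the design does not say that they do. Same-label deviations correlated from -0.38 to 0.32 in PEO1 and from -0.57 to 0.53 in PEO4, over 0.1 in 24 and 36 of 84 pairs. Their medians were 0.01 and 0.08, against 0 and -0.01 for pairs of different labels. With 4 labels, 12 of 28 arrays in PEO1 and 18 of 28 in PEO4 correlated best with their own. This is a hint of shared structure, stronger in PEO4, from the data and not from the design. The main limma fits do not take it into account. With the replicate block, exact sign flips over 4 pairs cannot go below p = 0.125, and the values 0.41, -0.52, -0.84, -0.49 and 0.36 in PEO1 and 1.46, 0.42, -1.31 and -1.08 in PEO4 all had an adjusted p of 0.136.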
